A study of Mus musculus with 10 samples.

Results

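Splicing factors are themselves made from transcripts that are spliced in more than one way, and the splicing and coverage of 45 such genes are described here. They were picked by gene symbol from the 26264 symbols of the deposited splicing table. They comprise 12 genes of SR proteins and the related TRA2 proteins, 12 hnRNP genes, 14 genes of neuron-enriched or tissue-regulated families (Rbfox, Celf, Nova, Elavl, Khdrbs) and 7 genes of splice-site recognition and other factors. The symbols gave 1931 splicing events, of which 248 were deep and variable enough to test. At least 1 tested event was found in 41 of the 45 genes. The other 4, Rbfox3, Celf2, Khdrbs2 and Khdrbs3, had junction coverage at or near 0 in N2A cells.

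The data come from 10 libraries of polyadenylated RNA from mouse cells. In 6 of them, N2A cells, a neuroblastoma line, were transfected with 40 nM of an siRNA pool, either a non-targeting pool (siNT, n = 3) or one against the RNA-binding protein Quaking (siQk, n = 3), and collected 72 h later. The other 4 came from glutamatergic neurons differentiated in culture from mouse embryonic stem cells, taken at day 7 without drug (n = 2) or after 12 h in 100 uM cycloheximide, an inhibitor of translation (n = 2). All N2A samples had been transfected with siRNA, and no untransfected cells were analysed here. The first comparison asks which splicing events depend on Quaking, and the second which microexon isoforms differ when translation is blocked.

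SR proteins bind enhancer sequences in exons and recruit the splicing machinery, while hnRNP proteins coat nascent transcripts and often repress nearby splice sites. Many of these genes hold exons that bring in a premature stop codon. Transcripts with such an exon are substrates of nonsense-mediated decay, a route that is coupled to translation and through which several splicing factors limit their own amount. The Rbfox, Nova, Celf and neuronal Elavl proteins set much of the splicing that is particular to neurons.

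Exon-event reads ranged from 26595944 to 80481173 per N2A sample, and the depth behind the neuron values is unknown. Junction coverage of Qk, the targeted gene, fell from 90.8, 82.9 and 82.5 CPM (reads scaled to a common sample total) in siNT to 8.18, 12.3 and 13.0 CPM in siQk. Of 9 neuronal marker genes measured in N2A cells, 6 reached a mean of 1 CPM, and their list summed to between 1326 and 1361 CPM in siNT and between 1504 and 1630 CPM in siQk. Astrocyte, fibroblast and immune marker lists summed to at most 1.90 CPM in any sample. The neuron tables hold no gene levels, so the label of those cells could not be checked.

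Most cassette exons of the splicing factor genes differed little between siNT and siQk, as did most tested exons over all genes. Inclusion is given as percent spliced in (PSI), the share of a gene's spliced products at that exon that contain it. An event was tested with at least 10 reads in each of the 6 samples and a mean PSI from 2 to 98, and called where the adjusted p was under 0.05 and the means differed by at least 10 percentage points. Of 392 cassette exon events in 42 of the genes, 319 were deep enough, of which 203 had a mean PSI above 98 and 50 below 2. The remaining 66, in 33 genes, were tested, and none was called by limma, where 1.18% of all 12930 tested exons were called. At an unadjusted p under 0.05 there were 4, beside 9.04% of all tested exons, and limma on PSI itself called 1. The groups did not overlap in 8 of the 66, beside 14.6% of all tested exons. The median absolute difference was 0.80 points, against 1.82 points over all tested exons. The exons of these genes were also deeper, with a median of 316 reads in their shallowest sample against 78 over all tested exons, and the part of depth in this difference was not tested. In all, 35 exons were higher and 31 lower in siQk. Values below are PSI in siNT samples 1 to 3 and then siQk samples 1 to 3, each ± is an SD over n = 3, and positions are on mm10.

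**Figure D1:**
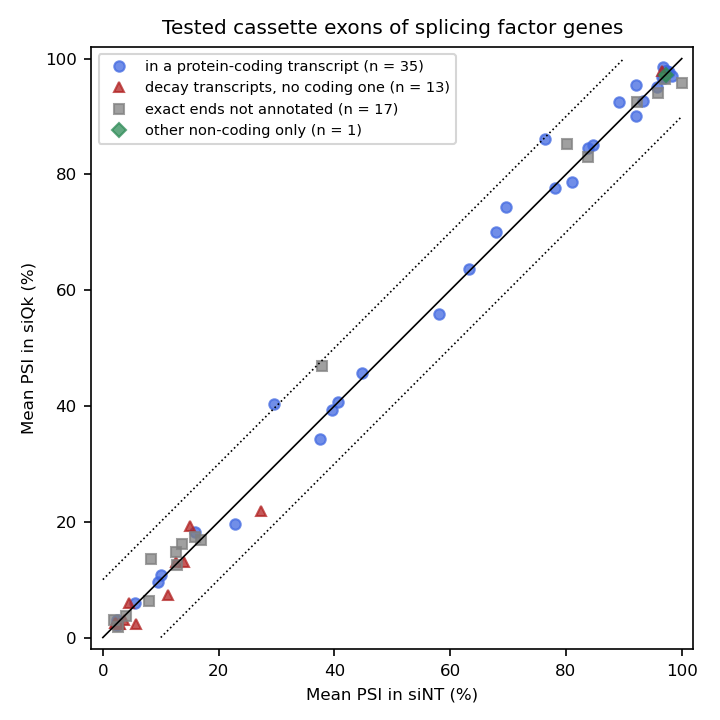
Mean PSI in siQk (vertical axis, %) against siNT (horizontal axis, %) for the 66 tested cassette exons, with colour and shape by the transcripts that hold the exon in GENCODE M21. The solid line marks equal values and the dotted lines a difference of 10 points, and 1 exon, the 39 nt exon of Elavl2, lies beyond them, at 29.6% and 40.3%.

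The exon nearest to a call lay in Elavl2, which encodes the neuronal RNA-binding protein HuB. Its paralogs Elavl3 and Elavl4 carry a coding exon of the same length, and the sequences are shown because the closely related exons had very different levels. They are taken from GENCODE M21 transcripts, on the minus strand at chr4:91254141-91254179, chr9:22024674-22024712 and chr4:110209740-110209778. Capitals mark the 7 of 39 positions that the exons do not all share.
Elavl2 39 nt exon: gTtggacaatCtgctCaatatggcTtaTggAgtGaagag
Elavl3 39 nt exon: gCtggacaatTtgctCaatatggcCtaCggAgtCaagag
Elavl4 39 nt exon: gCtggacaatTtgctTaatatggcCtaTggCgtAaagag
The Elavl2 exon differed from that of Elavl3 at 5 positions (87.2% identity) and from that of Elavl4 at 6 (84.6%), and Elavl3 and Elavl4 differed at 4 (89.7%).

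Inclusion of the Elavl2 exon was 30.2%, 29.5% and 29.2% in siNT and 40.5%, 40.9% and 39.6% in siQk. The samples of each group lay within 2 points of each other and the groups were far apart, from 412 to 1351 reads per sample. The mean went from 29.6% ± 0.486 to 40.3% ± 0.639, a difference of 10.7 points with a limma adjusted p of 0.0627, which misses the threshold. Across the alternatives the adjusted p ran from 0.0164 (limma on PSI) to 0.248. The Elavl3 exon was nearly always included, at 97.4%, 97.4% and 96.5% in siNT and 98.2%, 97.7% and 97.4% in siQk. The Elavl4 exon, named after its values were seen, lay at 98.1%, 98.6% and 97.3% in siNT and 97.1%, 99.1% and 98.5% in siQk, just above the PSI limit for testing. Junction coverage of Elavl2 was 140, 120 and 115 CPM in siNT and 128, 109 and 112 CPM in siQk, so that the groups overlapped (log2 fold change -0.10, SE 0.10, limma adjusted p = 0.642).

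The exon next in order of p lay in Srrm1, which encodes a serine- and arginine-rich coactivator of exon definition. This 42 nt coding exon lies at chr4:135329004-135329045 on the minus strand and is shown as the exon with the second largest difference.
Srrm1 42 nt exon: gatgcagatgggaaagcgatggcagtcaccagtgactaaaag
Its inclusion was 75.4%, 74.3% and 79.2% in siNT and 81.3%, 88.2% and 89.0% in siQk. All siQk samples were above all siNT samples, and siQk sample 1 was the lowest of its group. The mean went from 76.3% ± 2.56 to 86.2% ± 4.23, by 9.85 points (limma adjusted p = 0.105, 6.79e-05 to 0.404 over the alternatives). The lowest of these used all samples, and there the exon missed a call only because 9.85 is under 10 points. Without siQk sample 1 the difference was 12.3 points and would be called (adjusted p = 0.00432). Srrm1 also holds a 25 nt microexon, at 82.4%, 77.2% and 80.8% in siNT and 85.6%, 88.6% and 81.3% in siQk (adjusted p = 0.831). The groups of that microexon overlapped. It was the only exon of these genes in the authors' deposited list of neural microexons, where it stands at 80.0% in siNT and 83.6% in siQk, in a class named as not changed.

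**Figure D2:**
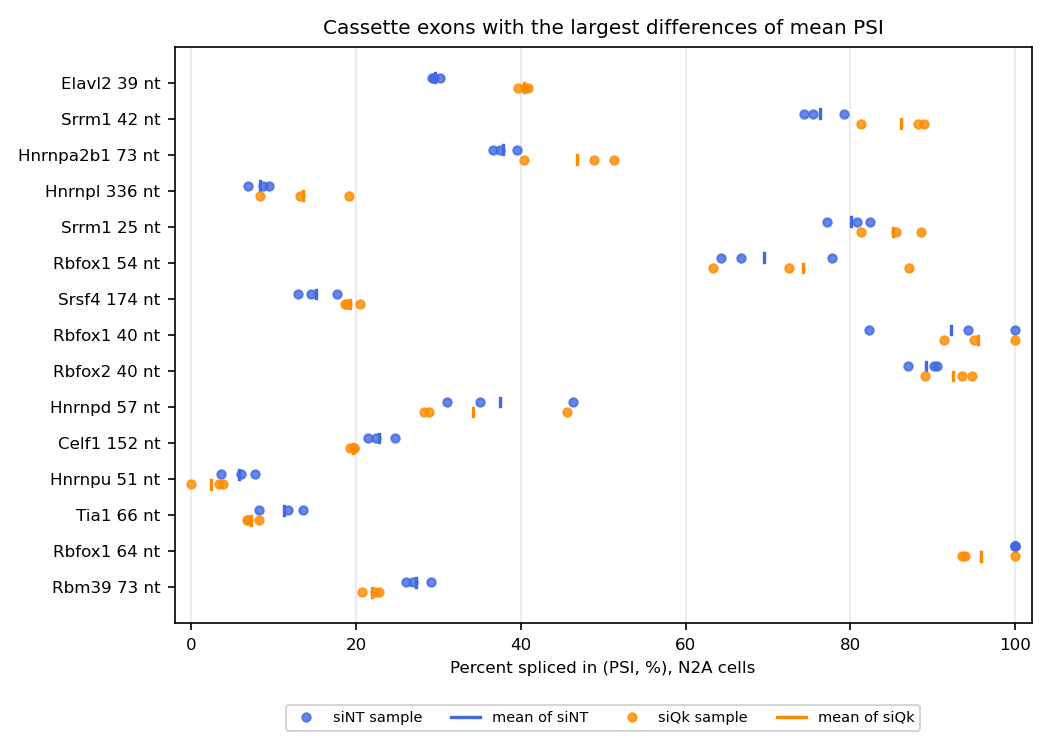
PSI (horizontal axis, %) in each N2A sample for the 15 tested cassette exons with the largest differences of mean PSI, ordered from the largest rise to the largest fall. Points are samples (blue siNT, orange siQk) and short bars are group means. The exons of Elavl2 and Srrm1 (42 nt) show separate groups, while those of Rbfox1 (40 nt and 54 nt) and Hnrnpd (57 nt) spread over more than 10 points within a group.

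Among the SR and TRA2 genes, 13 exons in 9 genes were tested, with 7 higher and 6 lower and differences from -0.83 to 4.24 points. Their median PSI in siNT was 13.7%, so that most were minor exons. The largest difference was that of a 174 nt exon of Srsf4, at 14.6%, 13.0% and 17.7% in siNT and 18.9%, 20.5% and 18.6% in siQk (limma adjusted p = 0.652). All siQk samples of that exon lay above all siNT samples. Srsf7, whose protein shuttles between nucleus and cytoplasm, held a 36 nt coding exon at a steady level, 78.2% ± 0.737 in siNT and 77.6% ± 0.728 in siQk. A 24 nt microexon of Srsf7, whose exact ends are not annotated in GENCODE M21, stood at 83.8% ± 3.16 and 83.0% ± 4.88. It rested on 31 to 118 reads. The 5′ site at its end was used at 8.21% in siNT and 8.25% in siQk, from 439 to 1441 reads. The PSI of this microexon is thus a share of few reads and need not be a share of all Srsf7 transcripts.

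Several of these minor exons carry a premature stop. By GENCODE M21, 13 of the 66 tested exons (19.7%) lay in transcripts annotated for nonsense-mediated decay and in no protein-coding transcript, a class that held 3.77% of all tested exons. Of the 13, 3 (2 in Rbm39 and 1 in Tia1) also lay in transcripts annotated with a retained intron. They lay in Srsf1, Srsf4, Srsf11, Hnrnpu, Rbm39, Srrm2, Tia1 and Tial1, and their median PSI in siNT was 5.80%. In 11 of the 13 the stop codon of the decay transcript was inside the exon itself. Of these 11, one exon each of 6 genes is shown, read from GENCODE M21 transcripts from the first base of the exon to that stop codon, which is in capitals.
Srsf1 119 nt exon: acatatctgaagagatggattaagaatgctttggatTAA
Srsf4 207 nt exon: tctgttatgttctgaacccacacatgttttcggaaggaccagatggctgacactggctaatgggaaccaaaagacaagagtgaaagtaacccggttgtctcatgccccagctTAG
Srsf11 117 nt exon: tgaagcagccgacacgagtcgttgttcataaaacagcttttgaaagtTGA
Rbm39 73 nt exon: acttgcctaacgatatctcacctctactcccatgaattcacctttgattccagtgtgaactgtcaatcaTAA
Tia1 66 nt exon: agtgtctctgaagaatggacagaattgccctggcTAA
Tial1 68 nt exon: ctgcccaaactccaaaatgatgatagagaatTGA
These exons lie at chr11:88049977-88050095 (plus strand), chr4:131884276-131884482 (plus), chr3:158023243-158023359 (minus), chr2:156178880-156178952 (minus), chr6:86423606-86423671 (plus) and chr7:128446731-128446798 (minus), in the order shown.

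The levels of the decay exons differed widely between genes. Rbm39, which encodes a coactivator related to U2AF, had the highest of the minor ones, a 73 nt exon at 26.9%, 26% and 29.1% in siNT and 20.7%, 22.3% and 22.8% in siQk. All siQk samples of that exon were below all siNT samples, by 5.42 points in the mean, with a limma adjusted p of 0.441. Its other decay exons, of 155 nt and 72 nt, stayed between 1.84% and 3.03% in every sample. Tia1 and Tial1 encode related proteins that bind uridine-rich RNA next to weak 5′ splice sites. The 66 nt exon of Tia1 stood at 8.24%, 11.8% and 13.6% in siNT and 6.94%, 6.72% and 8.26% in siQk, and the groups overlapped by a single sample. The 68 nt exon of Tial1 varied little, from 12.6% to 14.6%. The 207 nt exon of Srsf4 lay between 11.4% and 14.5%, and the 117 nt exon of Srsf11 was at 4.3%, 1.96% and 2.45% in siNT and 2.78%, 2.27% and 2.14% in siQk. The 119 nt exon of Srsf1 behaved unlike the rest, at 92.3%, 97.7% and 100% in siNT and 100%, 95.2% and 98.1% in siQk, from 40 to 131 reads. No annotated transcript skips this Srsf1 exon, and a 457 nt intron of the gene had 876 to 2963 reads per sample. The PSI of this exon is thus a share of few reads and need not be a share of all Srsf1 transcripts. None of the 13 was called, and the largest difference among them was that of the Rbm39 exon.

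The tested exons of hnRNP genes numbered 11 in 8 genes, with 5 higher and 6 lower. Hnrnpa2b1 encodes an abundant relative of hnRNP A1. A 73 nt exon of it, whose exact ends are not annotated in GENCODE M21, stood at 36.6%, 37.5% and 39.6% in siNT and 40.3%, 48.9% and 51.3% in siQk. The siQk samples were all above siNT but spread over 11 points, and the limma adjusted p was 0.449. The 5′ site that ends this 73 nt form was used at a mean of 11.7% in siNT and 15.4% in siQk. A site that adds 63 nt was used at 88.3% and 84.5%. The PSI of this exon event need not be that of the 73 nt form alone. A 336 nt exon of Hnrnpl (8.71%, 9.48% and 6.92% in siNT, 13.2%, 8.36% and 19.2% in siQk) rested on 18 to 64 reads, and its groups overlapped. Hnrnpu had a 51 nt decay exon at 7.73%, 3.6% and 6.08% in siNT and 3.89%, 0% and 3.35% in siQk, from as few as 10 reads. Hnrnpd encodes AUF1, a regulator of mRNA decay whose isoforms differ by a pair of alternative exons. Its 57 nt exon was at 46.3%, 35.1% and 31.0% in siNT and 45.6%, 28.8% and 28.2% in siQk, with sample 1 highest in both groups (adjusted p = 0.888). The 147 nt exon of the same gene stood at 67.8% ± 4.70 and 70.1% ± 6.17.

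The neuron-enriched and tissue-regulated families gave 23 tested exons in 9 genes, 13 higher and 10 lower. Rbfox1 and Rbfox2 encode related factors that bind the same short RNA element, and each has a 40 nt coding exon, at chr16:7363865-7363904 (plus strand) and chr15:77094451-77094490 (minus). Their GENCODE M21 sequences are shown for comparison, with the 6 positions that differ (85.0% identity) in capitals.
Rbfox1 40 nt exon: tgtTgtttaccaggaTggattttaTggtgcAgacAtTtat
Rbfox2 40 nt exon: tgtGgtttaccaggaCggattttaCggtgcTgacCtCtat
The Rbfox2 exon was at 87.0%, 90.5% and 90.2% in siNT and 94.8%, 89.0% and 93.6% in siQk (limma adjusted p = 0.604). The Rbfox1 exon was at 94.3%, 100% and 82.3% in siNT and 95.02%, 91.4% and 100% in siQk, from 17 to 57 reads, and overlapped between the groups. Another Rbfox1 exon, of 54 nt, was at 77.8%, 64.3% and 66.7% in siNT and 63.3%, 87.1% and 72.5% in siQk, and its groups overlapped. A 64 nt exon of the gene was at 100% in all siNT samples and at 100%, 93.9% and 93.6% in siQk. Celf1, which encodes a protein that binds GU-rich RNA, had a 152 nt exon at 24.7%, 22.4% and 21.4% in siNT and 19.7%, 19.3% and 19.7% in siQk. That exon was lower in all siQk samples, by 3.27 points (adjusted p = 0.732).

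Splice-site recognition and other factors gave 19 tested exons in 7 genes, 10 higher and 9 lower. Besides those of Srrm1, Rbm39, Tia1 and Tial1 above, Sf1, which encodes the branch-point binding protein, had a 205 nt coding exon at 40.7% ± 2.54 in siNT and 40.6% ± 1.30 in siQk. U2af1, which encodes the subunit that reads the end of the intron, had a 67 nt coding exon at 92.1% ± 2.44 and 90.04% ± 4.56.

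Intron events showed no called change either. Of 393 introns in the 45 genes, 334 were deep, and 268 of these had a mean retention under 2%. None of the 65 tested introns, in 31 genes, was called by limma, where 0.113% of 17664 were called over all genes. At an unadjusted p under 0.05 there was 1, beside 5.02% of all tested introns, and in 4 the groups did not overlap, beside 10.4%. The median absolute difference was 0.92 points (1.16 over all introns). Among introns of SR and TRA2 genes, 14 of 18 were lower in siQk, by at most 5.23 points, and over all genes 9791 of 17664 were lower.

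**Figure D3:**
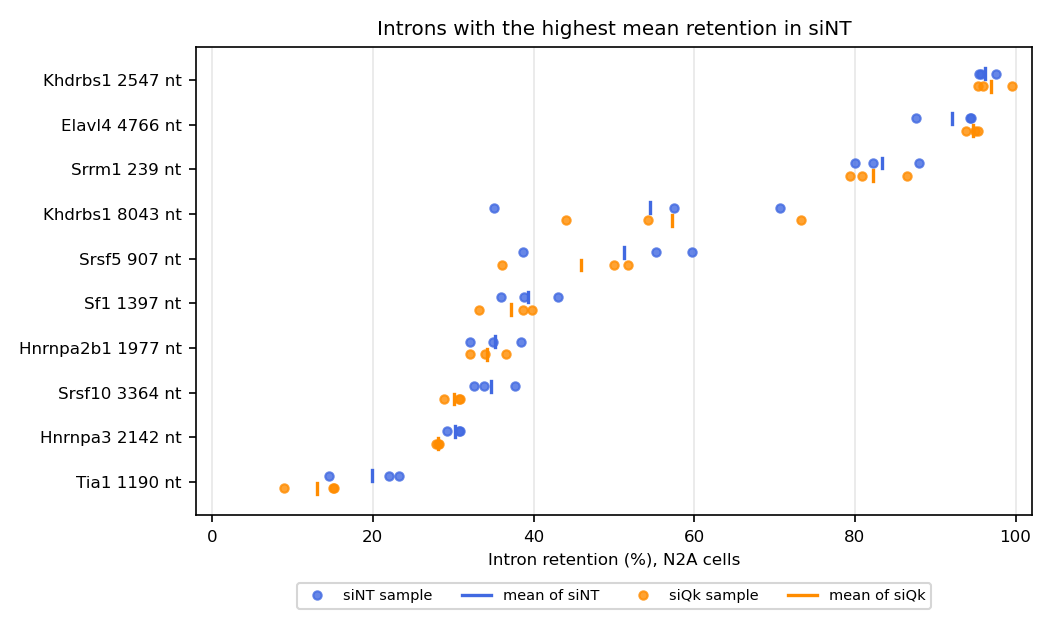
Intron retention (horizontal axis, %) in each N2A sample for the 10 tested introns with the highest mean in siNT. Points are samples (blue siNT, orange siQk) and short bars are group means. Mean values in siNT ran from 96.2% in Khdrbs1 to 19.96% in Tia1, and in Srsf10 and Hnrnpa3 the siQk samples all lay below the siNT samples.

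The highest value was that of a 2547 nt intron of Khdrbs1 (Sam68, a signal-responsive RNA-binding protein), at 97.5%, 95.5% and 95.6% in siNT and 99.6%, 95.3% and 96.0% in siQk. A 4766 nt intron of Elavl4 was at 94.4%, 94.3% and 87.5% in siNT and 94.9%, 95.3% and 93.9% in siQk. A 239 nt intron of Srrm1 was at 82.3%, 88.0% and 80.0% in siNT and 86.4%, 79.4% and 80.8% in siQk. The groups of these 3 introns overlapped. No GENCODE M21 transcript retains any of the 3, and at least 1 annotated exon overlaps an end of each. Their percentages need not be retention of the whole intron. An 8043 nt intron of Khdrbs1 varied widely, at 57.4%, 35.1% and 70.7% in siNT and 44.0%, 73.3% and 54.3% in siQk, from 13 to 37 reads.

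Several intron events span annotated exons, so their percentage need not be retention of the whole intron. The Elavl4 intron holds the 39 nt exon shown above. A 1397 nt intron of Sf1 holds the 205 nt exon and was at 36.0%, 43.1% and 38.8% in siNT and 33.2%, 39.9% and 38.7% in siQk. A 1977 nt intron of Hnrnpa2b1 holds the 73 nt exon and was at 38.5%, 32.1% and 35.0% in siNT and 32.1%, 36.6% and 34.0% in siQk. The siNT and siQk samples of both overlapped.

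Srsf10 encodes a factor that represses splicing when it loses its phosphates. Its 3364 nt intron was at 37.6%, 33.8% and 32.6% in siNT and 28.8%, 30.7% and 30.9% in siQk. The siQk samples were all lower, by 4.52 points in the mean, but the limma adjusted p was 1.00 after rounding. This intron holds a 360 nt exon that was included at 97.5%, 96.8% and 97.4% in siNT and 96.5%, 96.3% and 98.8% in siQk. In GENCODE M21 that exon lies in a non-coding processed transcript and in no protein-coding one, and protein-coding transcripts skip it. Its PSI need not be a share of all Srsf10 transcripts. A 907 nt intron of Srsf5 was at 38.6%, 55.2% and 59.7% in siNT and 36.1%, 51.8% and 50.05% in siQk, with sample 1 lowest in both groups. It starts right after a 5′ splice site of Srsf5, a longer 5′ site lies inside it, and 9 annotated exons overlap one end. Its percentage need not be retention of the whole intron. A 2142 nt intron of Hnrnpa3 was at 29.2%, 30.8% and 30.8% in siNT and 28.3%, 27.8% and 28.1% in siQk (adjusted p rounded to 1.00).

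Tia1 had the intron with the largest difference, 1190 nt long, at 14.5%, 23.3% and 22.0% in siNT and 8.91%, 15.1% and 15.1% in siQk. Sample 1 was the lowest of both groups, and the groups overlapped. The mean was lower by 6.92 points, with a limma p of 0.0332 before and 0.936 after adjustment. The 1190 nt intron has 5 annotated exons inside it, among them a 119 nt decay exon of Tia1. A 3933 nt intron of the same gene was at 6.4%, 11.1% and 11.7% in siNT and 5.17%, 6.45% and 3.90% in siQk. That intron has 4 annotated exons inside, among them the 66 nt decay exon shown above. The percentages of both Tia1 introns need not be retention of the whole intron, nor separate from the exon values. Introns of 4 more genes were among the 10 with the largest differences, and the groups of each overlapped. In Srsf2 a 1059 nt intron was at 12.9%, 15.7% and 14.8% in siNT and 8.35%, 15.1% and 11.9% in siQk. In Srsf6 a 1283 nt intron was at 13.1%, 17.0% and 16.9% in siNT and 8.55%, 17.2% and 13.0% in siQk. Both were lowest in siQk sample 1. In Tra2a an 11322 nt intron was at 13.9%, 11.4% and 16.0% in siNT and 7.67%, 18.4% and 8.52% in siQk. In Tial1 a 6165 nt intron was at 8.57%, 2.13% and 6.6% in siNT and 2.19%, 2.08% and 5.0% in siQk. Annotated exons also lay inside these introns of Srsf2, Srsf6 and Tra2a.

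The largest differences at alternative splice sites exceeded those of the exons but were less certain. The median absolute difference was 1.405 points at 3′ sites and 1.70 at 5′ sites, against 1.61 and 1.84 over all tested sites. The median reads in the shallowest sample were 210.5 at 3′ sites and 50 at 5′ sites, against 316 for the exons. None of 70 tested 3′ sites in 22 genes was called by limma, where 0.101% of all tested 3′ sites were called. At an unadjusted p under 0.05 there were 7 (10%), beside 4.85% of all tested 3′ sites. In 9 (12.9%) the groups did not overlap, beside 9.55% of all tested 3′ sites. In a pair of sites that share 1 set of reads, the members mirror each other and are not independent. The largest difference was that of such a pair in Hnrnpa3, where the site that adds 18 nt was used at 22.6%, 25.2% and 7.27% in siNT and 36.8%, 31.7% and 26.3% in siQk. The siQk samples were all higher, by 13.2 points in the mean, from 23 to 69 reads (adjusted p = 0.992). One site of Hnrnpf was at 92.0%, 80.4% and 94.0% in siNT and 94.9%, 100% and 98.3% in siQk. One of Srrm2 was at 88.2%, 90% and 81.7% in siNT and 75.9%, 74.1% and 82.3% in siQk. A site of Srsf4 was at 78.4%, 82.0% and 95.5% in siNT and 94.9%, 100% and 86.1% in siQk, and there, as in Srrm2, the groups overlapped.

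None of 47 tested 5′ sites in 16 genes was called by limma, where 0.107% of all tested 5′ sites were called. At an unadjusted p under 0.05 there were 2 (4.26%), beside 5.13% of all tested 5′ sites. No site had groups that did not overlap, beside 10.7% of all tested 5′ sites. In Hnrnpa1, 1 of 9 alternative sites was used at 59.9%, 19.7% and 70.8% in siNT and 74.7%, 64.6% and 86.2% in siQk, and another at 0%, 73.3% and 0% in siNT and at 0% in every siQk sample. Both differences (25.0 and -24.4 points) rested on siNT sample 2, with 12 to 42 reads per sample. Without it the first fell to 9.80 points. Hnrnpa1 has many processed pseudogenes, and the sources used here do not say how the authors assigned such reads, so these values are uncertain. A site of Srrm2 was at 93.0%, 60.7% and 71.7% in siNT and 89.7%, 93.0% and 79.1% in siQk, from 10 to 21 reads. A 5′ site of a Srsf5 exon was used at 68.0%, 38.2% and 46.7% in siNT and 66.7%, 58.0% and 57.2% in siQk, from 471 to 1378 reads, with its partner the mirror image. Without siNT sample 1 the Srsf5 difference grew from 9.66 to 18.2 points and would be called (adjusted p = 0.00454), and without siNT sample 2 it shrank to 3.27 points (adjusted p = 0.996). The 907 nt Srsf5 intron described above starts right after this site, so the site and the intron need not be separate results.

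The level of splicing factor transcripts was read from junction coverage, the exon-event reads summed per gene as CPM. None of 36 genes tested was called by limma, where 4.54% of 10851 genes were called. At an unadjusted p under 0.05 there were 6, beside 20.4% of all genes, and 5 had groups that did not overlap, beside 26% of all genes. The median log2 fold change was -0.03, beside 0.02 over all genes, and 15 genes were higher and 21 lower. The summed coverage of the neuronal markers given above was higher in every siQk sample than in every siNT sample. Single markers were not compared, and the part of this sum in these values was not tested.

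**Figure D4:**
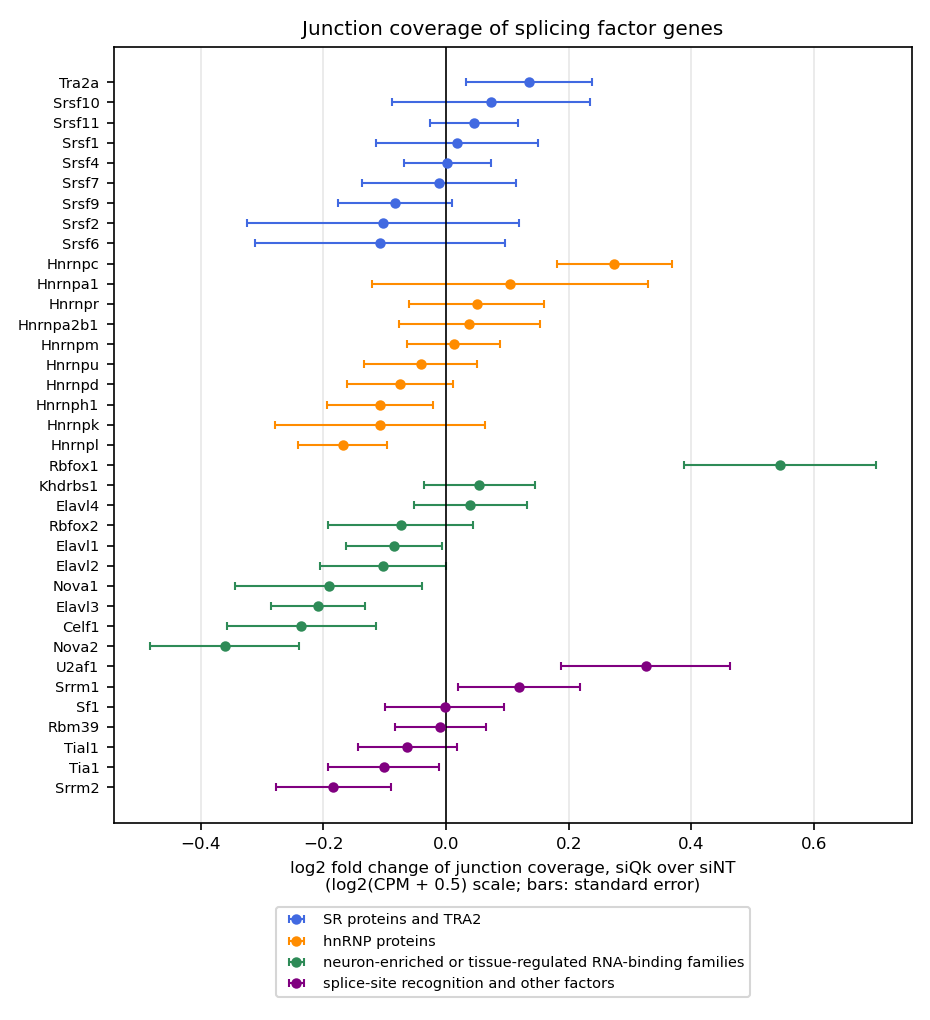
Log2 fold change of junction coverage in siQk over siNT (horizontal axis, log2(CPM + 0.5) scale) for the 36 splicing factor genes tested, in 4 role groups. Points are estimates and bars standard errors. Values run from -0.36 in Nova2 to 0.54 in Rbfox1, and none passed the threshold.

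Rbfox1 had the largest fold change, from a low level. Its junction coverage was 6.99, 4.88 and 5.39 CPM in siNT and 9.18, 8.73 and 7.74 CPM in siQk, so that every siQk sample was higher. On the log2(CPM + 0.5) scale this was a fold change of 0.54 (SE 0.16) with a limma adjusted p of 0.0887, and 0.0191 to 0.333 over the alternatives. Nova2, which encodes a neuronal splicing regulator, was lower in every siQk sample, at 13.3, 15.1 and 16.3 CPM in siNT and 12.4, 11.0 and 11.0 CPM in siQk (log2 fold change -0.36, SE 0.12, adjusted p = 0.135). Elavl3 was at 98.4, 92.4 and 95.1 CPM in siNT and 84.7, 83.8 and 78.9 CPM in siQk (-0.21, adjusted p = 0.164). Nova1 (30.6, 24.4 and 23.5 CPM in siNT, 27.6, 20.1 and 21.1 CPM in siQk) and Celf1 (314, 282 and 269, then 297, 224 and 220 CPM) overlapped between the groups. Without siQk sample 1 the log2 fold change of Celf1 went from -0.24 to -0.38 and would be called (adjusted p = 0.0282), and without siQk sample 3 it was -0.16 (adjusted p = 0.675).

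Among hnRNP genes, Hnrnpl, whose protein binds CA-rich RNA, was at 946, 1091 and 969 CPM in siNT and 913, 877 and 880 CPM in siQk (log2 fold change -0.17, limma adjusted p = 0.233). Hnrnpc, whose protein binds uridine tracts, was at 31.4, 30.9 and 31.1 CPM in siNT and 35.1, 37.5 and 40.9 CPM in siQk (0.27, adjusted p = 0.139). The direction of Hnrnpc depended on the reads used: with spliced reads of intron events, which are more numerous for this gene, the log2 fold change was -0.01. Hnrnpk rested on few exon-event reads, at 0.634, 0.554 and 0.765 CPM in siNT and 0.474, 0.527 and 0.708 CPM in siQk (-0.11, SE 0.17).

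U2af1 (20.2, 26.2 and 22.7 CPM in siNT, 24.9, 29.3 and 32.9 CPM in siQk, log2 fold change 0.33) and Srrm2 (200, 180 and 217, then 186, 178 and 161 CPM, -0.18) overlapped between the groups. So did Tra2a (150, 134 and 115, then 147, 151 and 139 CPM, 0.14) and Srrm1 (296, 233 and 267, then 272, 310 and 280 CPM, 0.12). The 9 SR and TRA2 genes tested had log2 fold changes from -0.11 to 0.14. Of the remaining 9 of the 45 genes, 3 (Srsf3, Hnrnpa3 and Hnrnpf) had no exon event in the table and 6 had too few exon-event reads. Spliced reads of intron events, a source chosen after seeing the data, brought in 5 of them, and none of 41 genes was then called (3.33% of 11085 genes). With intron-event reads the log2 fold change was 0.15 for U2af1, -0.095 for Hnrnpk and -0.19 for Elavl3, and the groups of each overlapped. It was 0.47 for Rbfox1, -0.39 for Nova2 and -0.18 for Hnrnpl, and the groups of each did not overlap. Srsf3 was at 314, 205 and 177 CPM in siNT and 312, 206 and 207 CPM in siQk on that measure, with sample 1 far above the others in both groups.

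A list of 56 other splicing factor genes, of which 53 were in the table, was measured in the same way. None of their 61 exons, 98 introns, 76 3′ sites and 59 5′ sites tested was called. Over all genes, 1.18%, 0.113%, 0.101% and 0.107% of the tested events of these classes were called. At an unadjusted limma p under 0.05 there were 7, 7, 2 and 1, beside 9.04%, 5.02%, 4.85% and 5.13% of all tested events. In junction coverage 5 of 46 had an unadjusted limma p under 0.05, beside 20.4% of all genes, and 1 was called, beside 4.54%. That gene was Msi2, which encodes the RNA-binding protein Musashi 2, at 121, 125 and 134 CPM in siNT and 92.0, 84.7 and 95.2 CPM in siQk (log2 fold change -0.48, SE 0.08, limma adjusted p = 0.0198).

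In neurons, cycloheximide was followed by a lower inclusion of a single microexon of these genes. The authors' deposited table gives 1 combined PSI per condition, so there is no replicate error. Untreated cells were assigned its first PSI column, since the control comes first in how the table is named. A row was counted as changed at 10 points and a probability of at least 0.9, which held for 9.4% of its 2469 rows and for 1 of the 7 rows of these genes.

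The changed microexon is a 26 nt exon of Hnrnpc in the 5′ untranslated region, at chr14:52098015-52098040 on the minus strand. In the authors' deposited table it was included at 82.5% without drug and at 32.0% with cycloheximide, lower by 50.4 points with a probability of 1. In N2A cells the same exon was at 42.8%, 38.3% and 37.9% in siNT and 46.0%, 35.8% and 36.3% in siQk, from 923 to 3099 reads. The siNT and siQk samples overlapped fully, with means of 39.7% ± 2.69 and 39.4% ± 5.76 (limma adjusted p = 0.986). The tables of the cell types were made separately, so their levels are given side by side without a comparison.

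**Figure D5:**
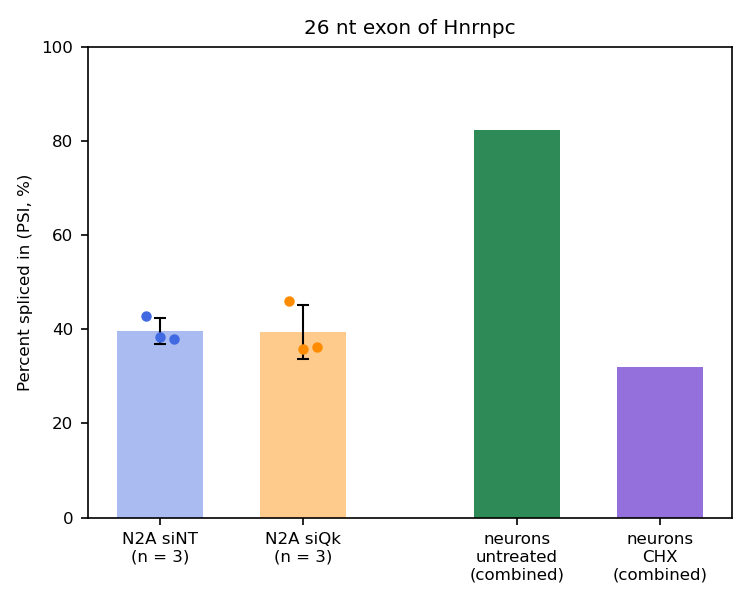
PSI (vertical axis, %) of the 26 nt exon of Hnrnpc. For N2A cells, bars are means, error bars SDs and points the 3 samples of each group. For neurons, bars are the authors' combined values without replicate error, 82.5% untreated and 32.0% with cycloheximide (CHX).

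The other 6 rows in the authors' deposited table moved by at most 2.21 points. That largest one was a 3 nt exon of Rbfox1, at 3.34% untreated and 5.56% with cycloheximide (probability 0.848). An 8 nt exon of Hnrnpm was at 99.9% untreated and 100.0% with the drug. Exons in Elavl3 (4 nt), Hnrnpa2b1 (24 nt) and Rbfox1 (4 nt) stayed under 1% in both conditions. A 16 nt exon of Hnrnpk, whose protein binds cytidine-rich RNA, was at 0.022% untreated and 0.020% with the drug. In the N2A table the exon with the same ends was at 95.7%, 100% and 100% in siNT and 100%, 96.2% and 98.1% in siQk, from 14 to 56 reads. The tables have different layouts, and whether they define this exon alike was not tested. The decay exons described above are longer than microexons and are not among these rows.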

How the data were processed

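Gene symbols defined the 45 genes. The genes and the lists were chosen with earlier results of these data known. For N2A cells the authors deposited, per the file headers, a percent (PSI) per event and sample, with a quality cell of another, text kind that holds inclusion and exclusion reads. For neurons the authors deposited PSI as a fraction, with a probability and a difference as scores, replicates combined. The list of neural microexons also holds deposited fractions and a score. The build was mm10 per the submitters' processing notes, and the sources used here do not give the software. Libraries were stranded with long inserts, and replicates biological, per the labels.

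Inclusion over exclusion reads, with 0.5 added to both, were put on a log2 scale and tested two-sided with limma 3.58.1 in R 4.3.3 (moderated, robust, variance trend), adjusted by Benjamini-Hochberg over all events of a class. Summed exon-event reads per gene, as log2(CPM + 0.5), were tested likewise where the mean was 20 reads or more. A read can serve several events. Reads without a gene name were 0.029% to 0.033% of a sample. In bulk samples, fewer cells and less RNA per cell cannot be told apart. No sample was a copy of another: within groups, squared differences were 1.87 to 3.44 times what sampling gives. Values in every sample are given for the 15 exons, 10 introns and 5 sites of each kind with the largest differences, for the 10 highest introns, for 1 decay or non-coding exon of each SR, TRA2 and hnRNP gene that had one, and for 12 genes by coverage. The cycloheximide rows have 1 combined value per condition. Exons were matched by exact ends to GENCODE M21. Scripts were tested on simulated data.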

Additional observations from a re-analysis of the deposited data

How the results depend on the processing

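Of 67 alternatives for the counts of called events or genes, 59 kept the count, and 8 moved it from 0. For cassette exons, 1 was called with limma on PSI and 1 with the replicate block (Elavl2 in both), and 0 to 1 when single samples were left out. For 5′ sites, 1 was called with sampling variance weights (Hnrnpa1, adjusted p = 0.0219), 2 at 15 points with no p-value, and 0 to 2 with single samples left out. For coverage, 2 were called with the replicate block (Rbfox1, adjusted p = 0.0191, and Celf1, adjusted p = 0.0470), and 0 to 1 with single samples left out. Same-numbered samples correlated in their deviations of coverage at 0.48, -0.14 and 0.48, and of exons, introns and splice sites at 0.011 to 0.139. Since no class had all pairs above 0.1, the numbers were not taken as pairs. As a hint from the data, every sample correlated best with its own number in 3′ sites, against 3 of 6 in coverage and 4 to 5 of 6 in the rest. The block took the called genes from 493 to 1551 over all genes, and leaving out samples gave 44 to 934. Introns and 3′ sites stayed at 0 under every alternative run. The cause was not tested for any of these.

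Of the named values, 689 alternatives kept direction and call, 11 gained a call and 23 reversed. The coverage change of Hnrnpc was -0.0098 with intron-event reads, and that of Srrm1 -0.039 with the top event per gene. Leaving out single samples, differences crossed 0 for the exons of Hnrnpd (57 nt, -8.94 to 1.18 points), Rbfox1 (40 nt, -1.66 to 7.20, and 54 nt, -1.69 to 10.2), Srsf10 (360 nt, -0.80 to 0.40), Srsf11 (117 nt, -0.98 to 0.19), Hnrnpc (-3.6 to 1.495) and Srsf7 (24 nt, -3.29 to 1.59), and the introns of Hnrnpa2b1 (-2.47 to 0.74), Khdrbs1 (8043 nt, -6.88 to 10.9, and 2547 nt, -0.58 to 1.56), Sf1 (-3.68 to 0.0050) and Srrm1 (-3.32 to 1.08). Exons with few reads, such as those of Rbfox1 and Hnrnpu, limit what could be detected.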

Other observations

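In spliced reads of intron events, sample 1 had the highest coverage of its group in both siNT and siQk for 9 of 12 SR and TRA2 genes (Srsf1, Srsf2, Srsf3, Srsf5, Srsf6, Srsf7, Srsf10, Tra2a and Tra2b). The same held for 17 of 41 splicing factor genes and for 33.8% of all genes, and for 2 of 12 hnRNP genes, Hnrnpr and Hnrnpu. In exon-event reads, Srsf2 was at 334, 206 and 216 CPM in siNT and 300, 212 and 188 CPM in siQk, and Srsf6 at 250, 174 and 159 CPM in siNT and 230, 156 and 155 CPM in siQk. The samples that share a number were not shown to be paired, and this pattern was noticed in the data and not tested.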
